A study of Mus musculus with 21 samples.

Results

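The 35 genes described here encode proteins of the cell cycle and of DNA replication, in mouse colon and ileum sequenced as poly(A) RNA. They were chosen by symbol from their known roles, and all 35 were found among the 21441 gene symbols of the deposited expression tables. By role, 6 are the kinases and cyclins of entry into mitosis (Cdk1, Ccnb1, Ccnb2, Ccna2, Plk1 and Aurka). The spindle checkpoint, the chromosomal passenger complex and the anaphase-promoting complex give 7 (Aurkb, Birc5, Cdca8, Bub1, Bub1b, Ttk and Cdc20), and 8 act on the spindle, the kinetochore or the chromosomes (Kif11, Kif23, Tpx2, Nusap1, Cenpe, Cenpf, Top2a and Mki67). Another 7 are the replicative helicase and the clamp of DNA polymerase (Mcm2, Mcm3, Mcm4, Mcm5, Mcm6, Mcm7 and Pcna), 3 supply deoxynucleotides (Rrm1, Rrm2 and Tyms), 3 control the step from G1 into S phase (Ccne1, Ccne2 and E2f1), and Cdkn1a encodes the inhibitor p21.

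The series held 21 libraries, 11 of colon and 10 of ileum, all of C57BL6J mice. Treated mice (3 libraries per tissue) carried the CDX2-VDR transgene, which supplies the human vitamin D receptor in the distal intestine of animals that lack their own, and were males of 9 weeks given 3 injections of 1,25-dihydroxyvitamin D3 (1,25D3, the hormonal form of vitamin D) at 1 ng per g body weight, 48, 24 and 6 h before the end. Uninjected mice carried that transgene without injections: in colon, 3 libraries were labelled as females of 9 weeks and 1 as a male of 10 weeks, and in ileum 2 as females of 9 weeks and 1 as a male of 10 weeks. KO mice (4 libraries per tissue) were untreated Villin-CreERT2 VDR f/f males, 1 of 9 and 3 of 11 weeks per tissue, in which a Cre recombinase driven in the gut epithelium acts on a floxed receptor gene. Against KO mice, genotype changed together with age and with injection or labelled sex, and between treated and uninjected mice labelled sex and age changed with the injections, so these cannot be told apart. The labels named no animals, so p-values measure the spread between these libraries.

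The intestinal epithelium is among the most rapidly renewed tissues of the body: stem cells and transit-amplifying cells divide in the crypts, and their daughters leave the cycle as they move out. Genes of S phase are switched on by E2F factors as cyclin E and its kinase release them from the retinoblastoma protein. Genes of mitosis follow later in the cycle through CHR elements, which the DREAM and MuvB complexes bind, and through CCAAT elements. p21, a target of p53 and in several cell types of the vitamin D receptor, inhibits the cyclin-dependent kinases and is made mainly by cells that have stopped dividing. In such bulk libraries, fewer dividing cells and less RNA per dividing cell cannot be told apart.

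Several libraries stood apart before any comparison. Cyp24a1, the enzyme that degrades 1,25D3 and a direct target of its receptor, was at 8.84 to 30.4 FPKM (fragments per kilobase of transcript, scaled to the depth of the library) in the treated colon libraries and at 4.31 to 19.5 FPKM in the treated ileum libraries, against at most 1.2 FPKM in uninjected and 0.0124 FPKM in KO libraries. Vdr itself stood at 12.7 to 39.9 FPKM in the transgenic colon libraries and at 20.6 to 24.9 FPKM in the KO ones, and in ileum at 12.3 to 24.9 FPKM in transgenic and 19.3 to 22.2 FPKM in KO libraries. That value covers the whole gene, and which exons were floxed is not stated in these sources, so it does not check the deletion. The Y-linked gene Ddx3y was at 12.1 FPKM in uninjected colon library 3, which was labelled female, whereas uninjected colon libraries 1 and 2 had 0.0979 and 0.209 FPKM. Uninjected colon library 3 also held the 1.2 FPKM of Cyp24a1, the highest of the uninjected libraries. The series' design text counts uninjected and treated colon libraries otherwise than the labels, which were followed here. The group of that library was not tested. In ileum, treated library 1 had 1.76 FPKM and uninjected library 3 had 2.32 FPKM of Ddx3y, between the 0.0347 FPKM of uninjected library 1 and the 8.98 to 15.1 FPKM of the other libraries. All 6 markers of intestinal epithelium were present in each library, together with smooth muscle genes, whose summed level was 499 to 5420 FPKM in colon, and 12 pancreatic acinar genes summed to 124980 FPKM in uninjected colon library 3, 40843 FPKM in KO colon library 2, 22879 FPKM in treated colon library 4 and at most 998 FPKM in the other colon libraries. Mapped reads recovered from the values ran from 11.26 to 44.54 M in colon and from 15.84 to 50.72 M in ileum. Libraries are numbered as in the deposited tables, where the treated ones are 1, 2 and 4 and the uninjected ileum ones 1, 3 and 4.

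The promoters of the members were searched for the elements through which the cell cycle is known to time such genes, and 4 are shown because their genes recur in the results below. Windows of 250 bases before to 50 bases after the transcript start were found for 30 of the 35 members in the RefSeq table of GRCm38.p6; no window was at hand for Tpx2, Ccne2, Aurkb, Ccna2 and Mcm4. Cdc20 (chr4:118437294-118437593, reverse strand) and Mki67 (chr7:135716330-135716629, reverse strand) stand for the mitotic genes, Mcm5 (chr8:75109259-75109558, forward strand) for the replication genes, and Cdkn1a (chr17:29093519-29093818, forward strand) for the inhibitor. Each is written 5′ to 3′ on the strand of its gene, and capitals mark the letters of the CCAAT box, the CHR core (TTTGAA) and the E2F motifs on either strand.
Cdc20: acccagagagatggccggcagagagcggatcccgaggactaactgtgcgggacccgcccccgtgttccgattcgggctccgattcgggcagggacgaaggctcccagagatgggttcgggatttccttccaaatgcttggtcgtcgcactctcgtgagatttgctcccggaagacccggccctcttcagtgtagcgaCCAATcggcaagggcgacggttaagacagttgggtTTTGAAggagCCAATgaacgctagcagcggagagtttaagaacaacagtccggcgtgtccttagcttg
Mki67: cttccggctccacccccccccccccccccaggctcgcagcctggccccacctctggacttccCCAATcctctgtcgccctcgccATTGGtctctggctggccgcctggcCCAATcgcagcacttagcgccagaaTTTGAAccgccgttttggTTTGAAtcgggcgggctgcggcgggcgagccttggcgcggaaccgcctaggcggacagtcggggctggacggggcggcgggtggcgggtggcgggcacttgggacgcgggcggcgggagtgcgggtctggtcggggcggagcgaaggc
Mcm5: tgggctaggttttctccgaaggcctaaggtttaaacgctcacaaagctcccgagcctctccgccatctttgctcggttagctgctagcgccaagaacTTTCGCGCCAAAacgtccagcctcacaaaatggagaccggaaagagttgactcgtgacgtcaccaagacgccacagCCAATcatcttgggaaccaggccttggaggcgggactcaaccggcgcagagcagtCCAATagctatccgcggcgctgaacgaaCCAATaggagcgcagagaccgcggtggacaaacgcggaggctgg
Cdkn1a: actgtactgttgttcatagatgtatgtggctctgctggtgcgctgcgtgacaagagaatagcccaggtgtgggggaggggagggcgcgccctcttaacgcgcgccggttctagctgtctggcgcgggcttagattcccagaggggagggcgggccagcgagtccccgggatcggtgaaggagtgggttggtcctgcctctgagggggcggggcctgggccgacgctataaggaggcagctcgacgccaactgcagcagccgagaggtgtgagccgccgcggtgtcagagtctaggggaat

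The CCAAT box was present in 24 of the 30 members with a window, against 37.4% of the 32851 promoters in the table. Members were counted by gene, with a match in any window of the gene, whereas all promoters were counted by window, so the shares differ in unit. Mcm7 and Cdkn1a had more than 1 window each. The E2F letters of Mcm7 stood in only 1 of its windows, and only 1 window of Cdkn1a is shown. TTTGAA, the core of the CHR element, was found in 14 of 30 (46.7%), against 17.9% of all promoters. It was carried by 4 of 5 promoters of the entry group, 4 of 6 of the checkpoint group and 5 of 7 of the spindle group, but by 1 of 6 of the helicase and clamp group. An E2F motif, searched as TTTCCCGC, TTTGGCGC, TTTCGCGC or TTTGCCGC, stood in 5 of 30 (16.7%), against 2.3% of all promoters: in Mcm3, Mcm5, Mcm6 and Mcm7 and in Cdk1. In Mcm5, TTTCGCGC and the reverse complement of TTTGGCGC overlap and share their middle bases. None of these letters stood in the windows of Birc5, Nusap1, Tyms, Ccne1, E2f1 and Cdkn1a. Both strands were searched, and a match describes the letters only.

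The members differed widely in level and were present almost throughout. In the uninjected and KO libraries, Cdkn1a had the highest median, 155 FPKM in colon and 189.8 FPKM in ileum, followed by Pcna, the sliding clamp, with 113 FPKM in colon and 108 FPKM in ileum. The lowest medians were those of Ccne2, a cyclin of the G1/S step, with 0.866 and 1.60 FPKM, and of Aurka, the centrosomal mitotic kinase, with 1.67 and 1.65 FPKM in colon and ileum. Ccne2 was listed at 0 in uninjected colon library 2, uninjected ileum library 1 and treated ileum library 1, and the other 34 members were above 0 in every library. Among the uninjected and KO colon libraries the highest exceeded the lowest by a median of 4.51-fold over these 34 members. The range was from 1.38-fold for Plk1 to 12.1-fold for Bub1. Among the uninjected and KO ileum libraries the median was 2.63-fold, from 1.63-fold for Ccne1 to 6.50-fold for Mcm5. Treated libraries are not part of these ratios, and Mki67 ran from 2.59 to 27.4 FPKM over the treated ileum libraries. Differences between groups have to be read against that spread.

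No member passed an adjusted p of 0.05 in any of the 6 comparisons (limma on log2(FPKM + 0.5), Benjamini-Hochberg over the genes whose mean reached 1 FPKM). Among all genes tested, 0.296% passed for treated against KO colon, 0.0804% for uninjected against KO colon and 0.0% for treated against uninjected colon. In ileum these shares were 0.0835% for treated against KO, 0.00846% for uninjected against KO and 0.0% for treated against uninjected. At an unadjusted p of 0.05 the members counted 1, 0 and 0 in colon, in that order of comparisons, against 7.31%, 4.6% and 1.14% of all genes, and 0, 4 and 0 in ileum, against 3.65%, 5.42% and 0.821%. Limma's voom on the recovered reads called 0 members as well. The 95% interval of a member's log2 difference had a median width of 1.46 for treated against KO colon, 1.93 for uninjected against KO colon and 2.49 for treated against uninjected colon, and of 1.47, 1.45 and 2.19 for the corresponding ileum comparisons. It lay wholly between -1 and 1 for 11, 6 and 2 members in colon and for 15, 16 and 2 in ileum, so that for the others a difference of 2-fold in at least 1 direction lay within the interval.

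**Figure D1:**
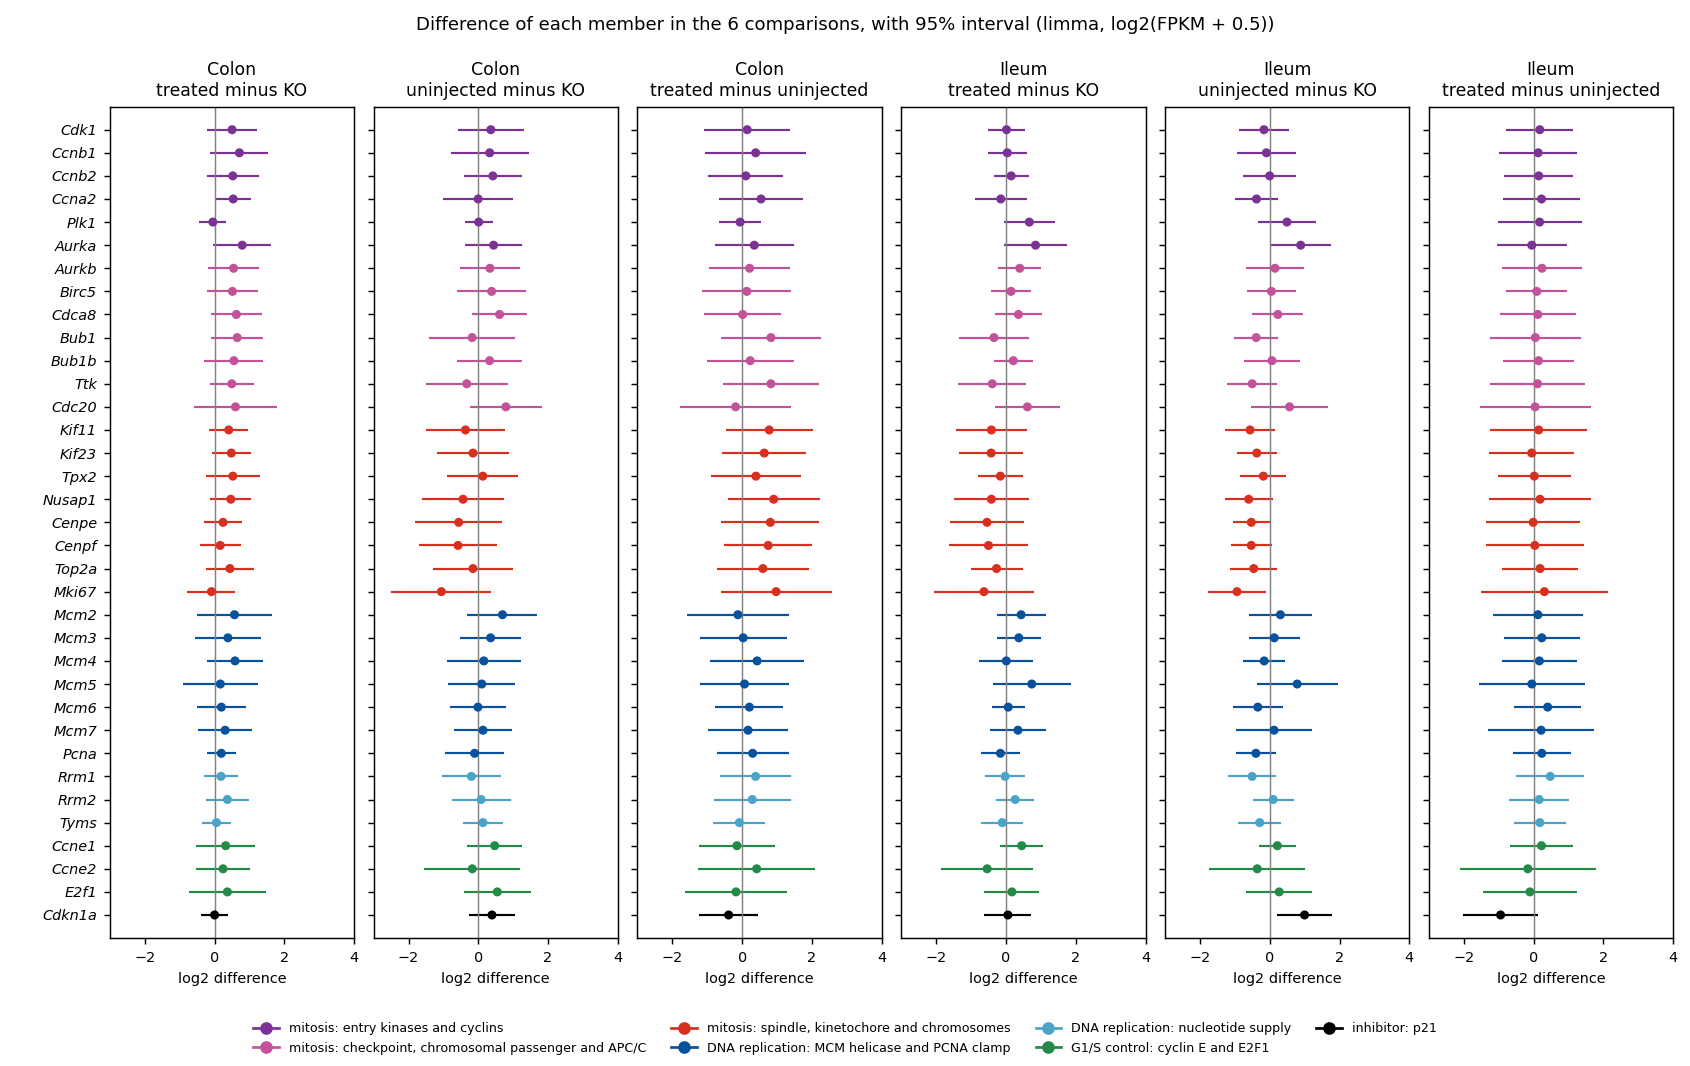
Log2 difference of each of the 35 genes (points) with its 95% interval (lines) in the 6 comparisons, coloured by role; the x axis is log2 units of FPKM + 0.5. In treated against KO colon 33 of 35 points lie right of 0 while no gene passed the adjusted threshold, and the spindle genes lie left of 0 in both comparisons of ileum with KO.

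Treated colon against KO colon asks how mice with the transgene and the hormone differ from KO mice, in which loss of the receptor was not checked here. Of the 35 genes, 33 had a higher mean log2 level in treated colon, a sign that 49.0% of all genes tested shared, and the median difference was 0.44 on the log2 scale, against -0.0087 over all genes. No gene of the set was lower without overlap (3.89% of all genes were). None passed the test, and adjusted p ran from 0.679 to 0.997. Without treated library 2 the median was 0.12, and without treated library 4 it was 0.67, with 19 members under an unadjusted p of 0.05, where 16.4% of all genes were, and 0 past the adjusted threshold. Markers of other cells differed in mean as well, none past the adjusted threshold: the 5 smooth muscle markers summed to 1002 to 1154 FPKM in treated and 1568 to 2166 FPKM in KO colon, and all 5 were lower without overlap. All 6 goblet cell markers were lower in mean (median -1.12), summing to 8755 to 13799 FPKM in treated and 16156 to 27405 FPKM in KO colon. The 4 macrophage markers found were higher in mean (median 0.68), summing to 72.9 to 176 FPKM in treated and 55.5 to 60.7 FPKM in KO colon. Of the 5 crypt stem cell markers found, 4 were lower in mean and 1 higher (median -0.23). The part of these cells in the members' levels was not tested.

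Among the kinases and cyclins of mitotic entry, 5 of 6 had a positive difference, with a median of 0.53 and a range from -0.048 for Plk1 to 0.79 for Aurka. Ccna2 (chr3:36463788-36471072 in mm9, reverse strand) encodes cyclin A, the partner of the kinases Cdk2 and Cdk1, and had 28.3, 43.2 and 27.0 FPKM in treated libraries 1, 2 and 4, against 26.2, 18.8, 18.6 and 25.4 FPKM in KO libraries 1 to 4. All 3 treated libraries lay above all 4 KO libraries, which was so for no other member and for 4.16% of all genes tested. The log2 difference was 0.54 (SE 0.23, 95% interval 0.017 to 1.05), the smallest p of the set, and did not pass (limma, adjusted p = 0.679). Ccnb1, cyclin B1, the activator of Cdk1, had 20.7, 49.7 and 16.1 FPKM in treated and 18.0, 12.6, 13.7 and 18.1 FPKM in KO colon. Treated library 2 stood far above the rest, treated library 1 was just above and treated library 4 within the KO values, and the difference was 0.71 (SE 0.36, adjusted p = 0.725). Aurka averaged 3.44 ± 1.86 FPKM in treated and 1.62 ± 0.433 FPKM in KO colon (SD, n = 3 and 4), with overlapping groups and an adjusted p of 0.691 from limma.

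All 7 genes of the checkpoint, passenger and anaphase-promoting group had a positive difference in treated against KO colon, between 0.49 for Ttk, a kinase of the spindle checkpoint, and 0.65 for Bub1, another of its kinases. Bub1 averaged 5.19 ± 2.33 FPKM in treated and 3.06 ± 1.06 FPKM in KO libraries. Cdc20 (chr4:118105506-118109957 in mm9, reverse strand), which activates the anaphase-promoting complex, had 33.3, 92.8 and 15.3 FPKM in treated colon, against 29.3, 20.4, 25.0 and 21.4 FPKM in KO colon. Treated libraries 1 and 2 were above every KO value and treated library 4 below them all, and the difference of 0.60 had an SE of 0.51.

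Of the 8 spindle, kinetochore and chromosome genes, 7 had a positive difference, from -0.089 for Mki67 to 0.52 for Tpx2, which promotes spindle assembly. Kif23, a motor of cytokinesis, averaged 15.2 ± 4.33 FPKM in treated and 10.7 ± 2.46 FPKM in KO colon, with an adjusted p of 0.727 (limma). Top2a, the topoisomerase that untangles sister chromatids, had 37.2, 57.5 and 29.0 FPKM in treated and 34.2, 23.8, 21.3 and 41.0 FPKM in KO colon, and its groups overlapped. Mki67 (chr7:142881471-142908062 in mm9, reverse strand) encodes Ki-67, the common marker of proliferation, and had 17.3, 12.9 and 21.0 FPKM in treated, against 19.6, 15.9, 11.7 and 27.9 FPKM in KO colon. Treated library 2, the highest for 30 of the 35 members, was the lowest treated library for Mki67, and the difference was -0.089 (SE 0.30).

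The replication genes were positive as a group and smaller in size: the 7 helicase and clamp genes had a median of 0.30, from 0.17 for Mcm5 to 0.59 for Mcm4, both subunits of the MCM ring that unwinds DNA at the fork. Mcm5 (chr8:77633427-77652338 in mm9, forward strand) had 13.8, 30.8 and 7.38 FPKM in treated and 7.57, 16.9, 12.8 and 17.7 FPKM in KO libraries, so that the treated libraries lay on both sides of the KO range. Pcna had 149.5, 163 and 109.7 FPKM in treated and 114, 129, 115 and 127 FPKM in KO colon, where treated libraries 1 and 2 were above and treated library 4 below the KO values. Rrm2, the small subunit of ribonucleotide reductase, had 14.5, 21.2 and 9.07 FPKM in treated and 10.6, 11.7, 9.18 and 11.9 FPKM in KO colon (difference 0.37, SE 0.27), and Tyms, thymidylate synthase, differed by 0.055. Of the G1/S genes, E2f1, an activator of S phase genes, had 5.0, 11.7 and 1.90 FPKM in treated and 2.83, 4.51, 3.74 and 3.96 FPKM in KO colon, with the highest and the lowest value of the table in the treated group. Ccne1, cyclin E1, averaged 6.78 ± 3.67 FPKM in treated and 4.91 ± 1.16 FPKM in KO colon, and Ccne2 differed by 0.24. Cdkn1a (chr17:29227924-29237667 in mm9, forward strand) had 182, 151 and 141 FPKM in treated, against 165, 148, 167 and 148 FPKM in KO colon, with a difference of 0.0028 and an interval of -0.38 to 0.38.

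Uninjected colon against KO colon leaves out the hormone injections. Here 21 of 35 members had a positive and 14 a negative difference, while 49.3% of all genes tested were positive, and the median was 0.13, against -0.0071 over all genes. No member passed (adjusted p 0.721 to 0.996), and no member had groups that did not overlap, against 1.22% of genes higher and 1.49% lower. The median of the members was -0.23 without uninjected library 3 and 0.37 without uninjected library 1. With labelled sex as a covariate it was -0.032. The KO libraries were all labelled male and the uninjected ones other than library 4 female, so that value sets library 4 alone against KO colon. Library 3 was fitted as female, despite its 12.1 FPKM of Ddx3y. Without uninjected library 4 the median of the members was 0.18, and 4 members had an unadjusted limma p under 0.05, as 27.0% of all genes did. In that fit 0 members and 68 genes passed the adjusted threshold. The median of the members was -0.13 when the libraries were rescaled without the pancreatic acinar genes, which moved the median of all genes to -0.26.

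The role groups pointed in different directions in this comparison. The 8 spindle genes had a median of -0.40 with 1 of 8 positive, against medians of 0.34 for the entry group, 0.33 for the checkpoint group and 0.13 for the helicase and clamp group. Mki67 had 2.82, 3.09, 17.3 and 21.9 FPKM in uninjected libraries 1 to 4, against 18.5, 15.0, 10.9 and 26.2 FPKM in KO libraries 1 to 4. Uninjected libraries 1 and 2 lay far below every KO library and libraries 3 and 4 within the KO range, with a difference of -1.06 (SE 0.64, 95% interval -2.49 to 0.37, limma adjusted p = 0.721). Cenpf and Cenpe, which link kinetochores to microtubules, differed by -0.58 and -0.56 with libraries 1 and 2 again below all KO libraries, though Cenpe in library 3, at 9.70 FPKM, was above them all, and Tpx2 was the positive one at 0.13. Top2a had 10.5, 17.3, 68.1 and 28.6 FPKM in uninjected and 32.2, 22.5, 19.9 and 38.5 FPKM in KO colon, with uninjected library 3 above and libraries 1 and 2 below all KO values.

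Cdca8, a subunit of the chromosomal passenger complex, had 19.8, 36.1, 49.9 and 15.5 FPKM in uninjected and 21.8, 15.1, 17.1 and 17.6 FPKM in KO colon. Its difference of 0.61 (SE 0.35) had the smallest p of the set and an adjusted p of 0.721 (limma), with uninjected libraries 1 and 4 inside the KO range. Cdc20 had 26.7, 47.6, 100.4 and 17.9 FPKM in uninjected and 27.7, 19.3, 23.3 and 20.1 FPKM in KO colon, the largest positive difference of the checkpoint group at 0.79 (SE 0.46), and Ttk was the lowest of that group at -0.33. In the entry group the range was from -0.0056 for Ccna2 to 0.44 for Aurka. Ccnb1 had 7.70, 17.1, 55.5 and 14.9 FPKM in uninjected colon, against 17.0, 11.9, 12.8 and 17.0 FPKM in KO colon. Its uninjected values spanned more than the whole KO range, from library 1 below it to library 3 above it.

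Mcm2, an MCM subunit, averaged 20.8 ± 17.1 FPKM in uninjected and 10.5 ± 2.46 FPKM in KO colon (SD, n = 4 each), the largest difference of the replication genes at 0.69. Mcm5 had 6.27, 17.5, 25.2 and 10.7 FPKM in uninjected and 7.15, 15.9, 11.9 and 16.6 FPKM in KO colon, and the groups overlapped. Pcna had 49.3, 118, 205 and 105 FPKM in uninjected and 108, 121, 108 and 119 FPKM in KO colon. The KO libraries differed by little, and uninjected libraries 1 and 4 lay below and library 3 above them. Rrm2 averaged 12.4 ± 8.50 FPKM in uninjected and 10.2 ± 1.23 FPKM in KO colon, while Rrm1, the large subunit of that enzyme, and Tyms marked the ends of the nucleotide group at -0.20 and 0.13. Ccne1 had 6.17, 6.35, 12.3 and 3.46 FPKM in uninjected and 3.02, 5.36, 4.82 and 5.27 FPKM in KO colon, with 3 of 4 uninjected libraries above all KO libraries and a difference of 0.47 (SE 0.35). E2f1 averaged 6.49 ± 5.34 FPKM in uninjected and 3.54 ± 0.658 FPKM in KO colon, and Ccne2 differed by -0.17. Cdkn1a had 319, 232, 122 and 154 FPKM in uninjected, against 156, 139, 156 and 139 FPKM in KO colon. Libraries 1 and 2 were above all KO libraries and library 3 below them, for a difference of 0.39 (SE 0.30, adjusted p = 0.724 by limma).

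**Figure D2:**
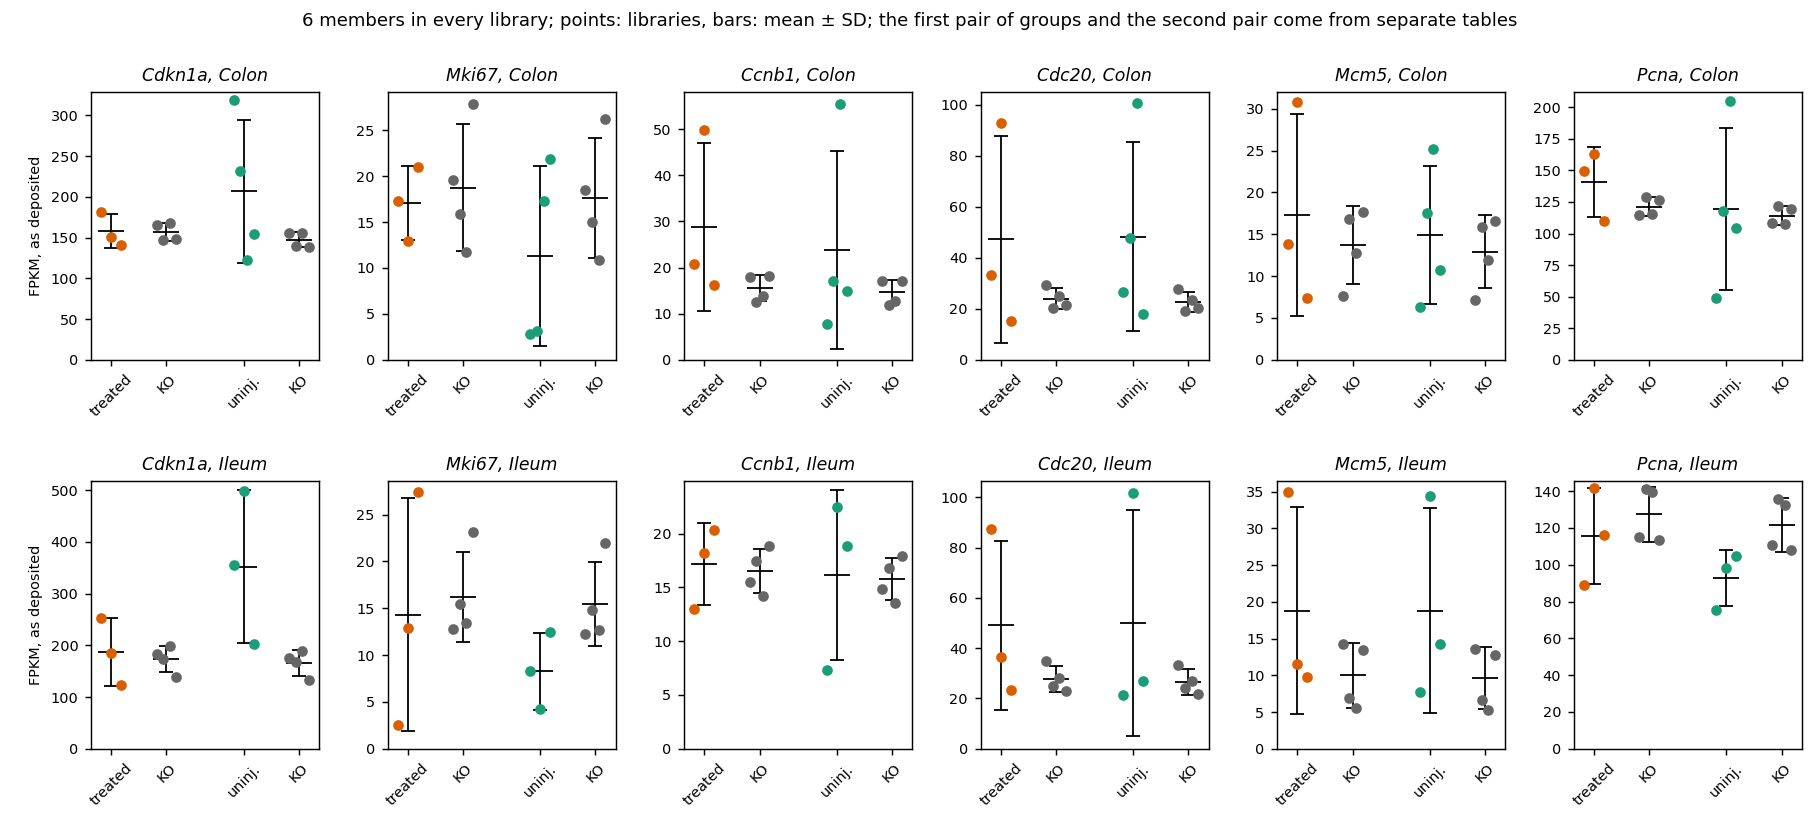
FPKM of Cdkn1a, Mki67, Ccnb1, Cdc20, Mcm5 and Pcna in every library of colon (top) and ileum (bottom); points are libraries, bars the mean and SD, the y axes start at 0, and the left and right pair of groups in each panel come from separate tables. Cdkn1a in the uninjected ileum libraries (355, 498 and 202 FPKM) lies above the KO libraries (132 to 189.8 FPKM), and in colon 1 library each of the treated and uninjected groups sets the mean of Ccnb1 and Cdc20.

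Treated colon against uninjected colon compares mice of the same transgene with and without the injections. Of the 35 genes, 28 had a positive difference, against 49.2% of all genes, and the median was 0.29, against -0.0079 over all genes. Every member had an adjusted p of 0.9995, none had groups that did not overlap (1.03% of all genes were higher and 0.342% lower in that way), and the intervals were the widest of the 6 comparisons by their median. Without uninjected library 3 the median was 0.64 and 8 members had an unadjusted p under 0.05, as 4.00% of all genes did, and without uninjected library 1 it was -0.024. The libraries are those already given, on a scale that differs by a constant per library.

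All 8 spindle genes were positive here, with a median of 0.76 and a range from 0.39 for Tpx2 to 0.97 for Mki67. Mki67 averaged 16.2 ± 3.93 FPKM in treated and 11.3 ± 9.82 FPKM in uninjected colon (SD, n = 3 and 4). Nusap1, a protein that bundles spindle microtubules, had the smallest p, with 13.2, 15.4 and 17.8 FPKM in treated and 2.66, 5.97, 20.9 and 11.2 FPKM in uninjected colon. Uninjected libraries 1, 2 and 4 were below all treated libraries and library 3 above them, so the difference of 0.90 had an interval of -0.41 to 2.22. Kif11, the motor that keeps spindle poles apart, averaged 12.1 ± 1.32 FPKM in treated and 8.46 ± 6.04 FPKM in uninjected colon, and Cenpf averaged 4.35 ± 0.603 and 2.99 ± 2.29 FPKM in those groups. Top2a differed by 0.59 (SE 0.58).

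The other roles had medians of at most 0.29 in treated against uninjected colon. In the entry group the range was from -0.059 for Plk1, a kinase of spindle assembly, to 0.54 for Ccna2, and Ccnb1 averaged 27.3 ± 17.1 FPKM in treated and 23.9 ± 21.5 FPKM in uninjected colon. The checkpoint group ran from -0.19 for Cdc20 to 0.83 for Bub1, with Ttk at 0.82. Helicase and clamp genes ran from -0.12 for Mcm2 to 0.43 for Mcm4, with Mcm5 at 0.069 and Pcna at 0.30. Rrm1, Rrm2 and Tyms differed by 0.39, 0.29 and -0.079, and Ccne2, Ccne1 and E2f1 by 0.42, -0.15 and -0.18. Cdkn1a averaged 149.6 ± 19.8 FPKM in treated and 209 ± 89.4 FPKM in uninjected colon, a difference of -0.39 (SE 0.38).

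In ileum, treated against KO libraries gave 20 positive and 15 negative members, against 50.2% positive among all genes, with a median of 0.039 for the members and 0.0021 for all genes. No member passed (adjusted p 0.939 to 0.9996). The roles pointed in opposite directions: 0 of 8 spindle genes were positive, with a median of -0.42, while 6 of 7 helicase and clamp genes were, with a median of 0.34. In treated library 1 all 8 spindle genes were below their table means, by a median of -1.51, while in treated library 4 all 8 were above, by 0.65. Of the helicase and clamp genes, 4 of 7 were above their means in treated library 1 (median 0.82), and Mcm4, Mcm6 and Pcna were below at -0.82, -0.053 and -0.44. All 12 pancreatic acinar markers had a positive difference in this comparison, with a median of 1.97, and their part in the members' levels was not tested. Without treated library 1 the median of all members was 0.15. Without treated library 4 it was 0.051, and 5 members had an unadjusted limma p under 0.05, as 11.0% of all genes did. In that fit 0 members and 14 genes passed the adjusted threshold.

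Mki67 shows the split between treated ileum libraries, with 2.59, 12.9 and 27.4 FPKM in treated libraries 1, 2 and 4, against 12.8, 15.5, 13.4 and 23.2 FPKM in KO libraries 1 to 4. Treated library 1 was the lowest and treated library 4 the highest of all, and the difference of -0.63 had an SE of 0.64. It was 0.25 without treated library 1. Top2a had 17.7, 34.5 and 44.8 FPKM in treated and 29.9, 39.6, 35.4 and 42.1 FPKM in KO ileum, in the same arrangement, and Tpx2 was nearest to 0 of the group at -0.16. Mcm5 went the other way, with 35, 11.5 and 9.78 FPKM in treated and 14.2, 6.93, 5.57 and 13.4 FPKM in KO ileum. Its treated library 1 exceeded every other library, for a difference of 0.74 (SE 0.49, limma adjusted p = 0.939) that was 0.18 without it. Cdc20 was high in that library as well, with 87.2, 36.5 and 23.5 FPKM in treated and 34.9, 25.0, 28.3 and 22.8 FPKM in KO ileum, and its difference of 0.61 was 0.095 without it.

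Aurka had the smallest p, with 4.04, 2.41 and 1.84 FPKM in treated and 1.23, 2.44, 0.550 and 1.22 FPKM in KO ileum and a difference of 0.85 (SE 0.39, 95% interval -0.043 to 1.74, limma adjusted p = 0.939). KO library 2 lay within the treated values. Plk1 followed with 51.2, 21.1 and 24.7 FPKM in treated and 20.4, 16.9, 16.4 and 21.2 FPKM in KO ileum, where KO library 4 was just above treated library 2. Ccne1 was the member whose treated libraries were all above the KO libraries, at 9.85, 5.85 and 5.20 FPKM in treated, against 4.71, 4.88, 5.04 and 4.46 FPKM in KO ileum, as for 3.03% of all genes, and none was lower in that way (1.97% of all genes). Its difference was 0.45 (SE 0.27, adjusted p = 0.939 by limma).

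Ccnb1 had 13, 18.2 and 20.3 FPKM in treated and 15.5, 17.5, 14.2 and 18.9 FPKM in KO ileum, with treated values on both sides of the KO range, and Ccna2 was the lowest of the entry group at -0.15. Ttk was the lowest of the checkpoint group at -0.39. Pcna averaged 116 ± 26.2 FPKM in treated and 127 ± 15.0 FPKM in KO ileum (SD, n = 3 and 4). Rrm2 averaged 14 ± 2.70 FPKM in treated and 11.5 ± 1.39 FPKM in KO ileum, and Tyms differed by -0.11. E2f1 averaged 4.43 ± 2.52 FPKM in treated and 3.57 ± 0.638 FPKM in KO ileum, and Ccne2 differed by -0.54. Cdkn1a had 253, 185 and 123 FPKM in treated and 183, 174, 199.6 and 139 FPKM in KO ileum, with the treated values on both sides of the KO range and a difference of 0.057.

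Uninjected ileum against KO ileum held the members nearest to a call. Cdkn1a was higher and Mki67 lower in mean, 4 members had an unadjusted p under 0.05, and 0 passed the adjusted threshold (adjusted p 0.665 to 0.998). Of 35 members, 15 were positive, against 51.1% of all genes, and the median was -0.16, against 0.015 over all genes. It was 0.23 without uninjected library 1, which was the lowest of the table for 27 of the 35 members, and -0.34 without uninjected library 3. Without uninjected library 4 it was -0.22, and 8 members had an unadjusted limma p under 0.05, as 18.9% of all genes did. In that fit 0 members and 5 genes passed the adjusted threshold. In uninjected library 1 the 5 crypt stem cell markers found summed to 31.2 FPKM, against 43.2 to 51.6 FPKM in KO ileum, and the 4 Paneth cell markers to 823 FPKM, against 9177 to 13201 FPKM. Over the whole uninjected group, 3 of those 5 crypt markers and all 4 Paneth markers were lower in mean than in KO ileum. The part of these cells in the members' levels was not tested.

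Cdkn1a had 355, 498 and 202 FPKM in uninjected libraries 1, 3 and 4, against 176, 167, 189.8 and 132 FPKM in KO libraries 1 to 4. All uninjected libraries were above all KO libraries, as for 5.26% of all genes tested, though library 4 only narrowly. The means were 352 ± 148 FPKM in uninjected and 166 ± 24.6 FPKM in KO ileum (SD, n = 3 and 4). The log2 difference was 1.00 (SE 0.35, 95% interval 0.21 to 1.79), with a limma adjusted p of 0.665, and 0.70 to 1.35 when any 1 library was left out. After removal of the GC and length trend within libraries it was 0.68.

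Mki67 had 8.26, 4.20 and 12.4 FPKM in uninjected, against 12.3, 14.9, 12.7 and 22.0 FPKM in KO ileum. Uninjected libraries 1 and 3 were below all KO libraries, and library 4 lay beside the lowest of them. The difference was -0.94 (SE 0.37, interval -1.78 to -0.10, limma adjusted p = 0.665), -0.55 without uninjected library 3 and -0.62 with the GC and length trend removed. None of the 8 spindle genes was positive, and their median was -0.53, up to -0.18 for Tpx2. Cenpe had 3.39, 3.48 and 4.53 FPKM in uninjected and 4.87, 5.67, 5.90 and 6.31 FPKM in KO ileum, and all uninjected libraries were below all KO libraries. Ttk and Pcna were the other members with that arrangement, which 3.35% of all genes showed. Cenpf averaged 2.30 ± 0.616 FPKM in uninjected and 3.52 ± 0.620 FPKM in KO ileum, and Top2a had 16.7, 29.6 and 32.5 FPKM in uninjected, against 28.7, 38.1, 33.7 and 40.0 FPKM in KO ileum, with uninjected library 1 well below the rest.

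Aurka went the other way from the spindle genes, with 1.65, 3.33 and 3.20 FPKM in uninjected and 1.18, 2.34, 0.523 and 1.16 FPKM in KO ileum and a difference of 0.89 (SE 0.39, limma adjusted p = 0.665). Its groups overlapped through KO library 2. Ccna2 was the lowest of the entry group at -0.38, and Ccnb1 had 7.32, 22.5 and 18.8 FPKM in uninjected and 14.9, 16.8, 13.5 and 17.9 FPKM in KO ileum, with uninjected library 1 below and libraries 3 and 4 above all KO values. In the checkpoint group Ttk was at -0.50 and Cdc20 at 0.57; Cdc20 had 21.4, 102 and 27.0 FPKM in uninjected and 33.5, 24.0, 26.9 and 21.6 FPKM in KO ileum, so that library 3 alone stood apart.

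Pcna had 75.4, 98.2 and 105 FPKM in uninjected, against 111, 136, 133 and 108 FPKM in KO ileum, a difference of -0.40 (SE 0.26). Mcm5 had 7.75, 34.4 and 14.2 FPKM in uninjected and 13.6, 6.66, 5.30 and 12.7 FPKM in KO ileum, and uninjected library 3 set its difference of 0.79. Rrm1 was the lowest of the nucleotide group at -0.50, and Rrm2 averaged 12 ± 3.06 FPKM in uninjected and 11.0 ± 1.29 FPKM in KO ileum. Among the G1/S genes, E2f1 averaged 4.98 ± 3.90 FPKM in uninjected and 3.41 ± 0.607 FPKM in KO ileum, Ccne1 averaged 5.47 ± 1.25 and 4.56 ± 0.25 FPKM in those groups, and Ccne2 differed by -0.36.

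Treated ileum against uninjected ileum gave 28 positive and 7 negative members, against 47.2% positive among all genes, with a median of 0.15, against -0.018 over all genes, and an adjusted p of 1 for each. The median was -0.16 without uninjected library 1 and 0.33 without uninjected library 3. The 4 Paneth cell markers found were all positive (median 1.70), with sums of 7412 to 14445 FPKM in treated and 796 to 15337 FPKM in uninjected ileum, and so were all 12 acinar markers (median 1.09), with sums of 428 to 829 FPKM in treated and 20.2 to 1001 FPKM in uninjected ileum. None of the 7 B cell and germinal centre markers tested was positive (median -1.18), and the 8 found summed to 21.4 to 112 FPKM in treated and 85.8 to 164 FPKM in uninjected ileum, with Fcer2a at 0 in treated library 2 and uninjected library 3. The part of these cells in the members' levels was not tested. Cdkn1a had the smallest p, with 232, 171 and 115 FPKM in treated and 344, 481 and 198 FPKM in uninjected ileum. Treated library 1 lay above uninjected library 4, so the groups overlapped, and the difference of -0.94 (SE 0.47) had an interval of -2.02 to 0.13. This comparison and the previous one share the uninjected libraries, so their values for Cdkn1a are not separate evidence. Tyms was the member without overlap, with 13.2, 13.6 and 13.5 FPKM in treated and 12.3, 12.5 and 10.8 FPKM in uninjected ileum and a difference of 0.18, as for 1.48% of all genes that were higher in this way, and 1.22% were lower.

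Rrm1 averaged 16.2 ± 4.07 FPKM in treated and 11.9 ± 5.05 FPKM in uninjected ileum (SD, n = 3 each), the largest positive difference of the members at 0.48. Mcm6 averaged 23.4 ± 1.52 and 18.8 ± 8.6 FPKM in treated and uninjected ileum, Pcna 107 ± 24.9 and 90.1 ± 15.3 FPKM, and Mcm5 was the lowest of their group at -0.050. Rrm2 differed by 0.16, Ccne1 by 0.23, Ccne2 by -0.16 and E2f1 by -0.10. In the entry group the range was from -0.051 for Aurka to 0.23 for Ccna2, with Ccnb1 at 0.13. The checkpoint group ran from 0.044 for Cdc20 to 0.24 for Aurkb, the kinase of the passenger complex. Spindle genes ran from -0.053 for Kif23 to 0.31 for Mki67, with Top2a at 0.19, and Mki67 averaged 13.3 ± 11.7 FPKM in treated and 8.07 ± 4.05 FPKM in uninjected ileum.

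The members deviated together within single libraries. In the table of treated and KO colon, treated library 2 was the highest for 30 of the 35 genes, with a median deviation of 0.92 log2 units from the genes' table means and up to 1.69 for Cdc20. In the table of uninjected and KO colon, uninjected library 3 was the highest for 31 genes, with a median deviation of 1.23, and uninjected library 1 the lowest for 21, with -0.78. Over all genes the median deviation of treated library 2 was -0.011. These high colon libraries were also the shallowest, at 11.26 M recovered reads for treated 2 and 12.42 M for uninjected 3. Their crypt stem cell markers (5 of 6 found) summed to 49.0 and 50.7 FPKM, against 25.3 to 35.8 FPKM in the other colon libraries of these tables. The sums do not stand for each marker. Between groups, 4 of the 5 were lower in mean in treated than in KO colon, and 4 of the 5 in uninjected than in KO colon (medians -0.23 and -0.34). The 6 fibroblast and matrix markers summed to 1103 FPKM in treated 2 and 863 FPKM in uninjected 3, against at most 459 FPKM in the others. The 5 smooth muscle markers ran the other way, with their lowest sum in uninjected 3, at 499 FPKM, and their highest in uninjected 1, at 5420 FPKM. The 6 epithelial markers had their lowest sum of the uninjected and KO table in uninjected 3 as well, at 5413 FPKM, against 13297 FPKM in uninjected 1. The 5 endothelial markers summed to 11.6 and 6.8 FPKM in those libraries, the lowest of their tables, with Tek at 0 in both and in 2 other libraries, uninjected 1 and KO 1. The part of depth and of these other cell types in the members' levels was not tested. Cdkn1a did not follow: it was highest in uninjected library 1, where its deviation was 0.92 and that of Mki67 was -1.85.

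**Figure D3:**
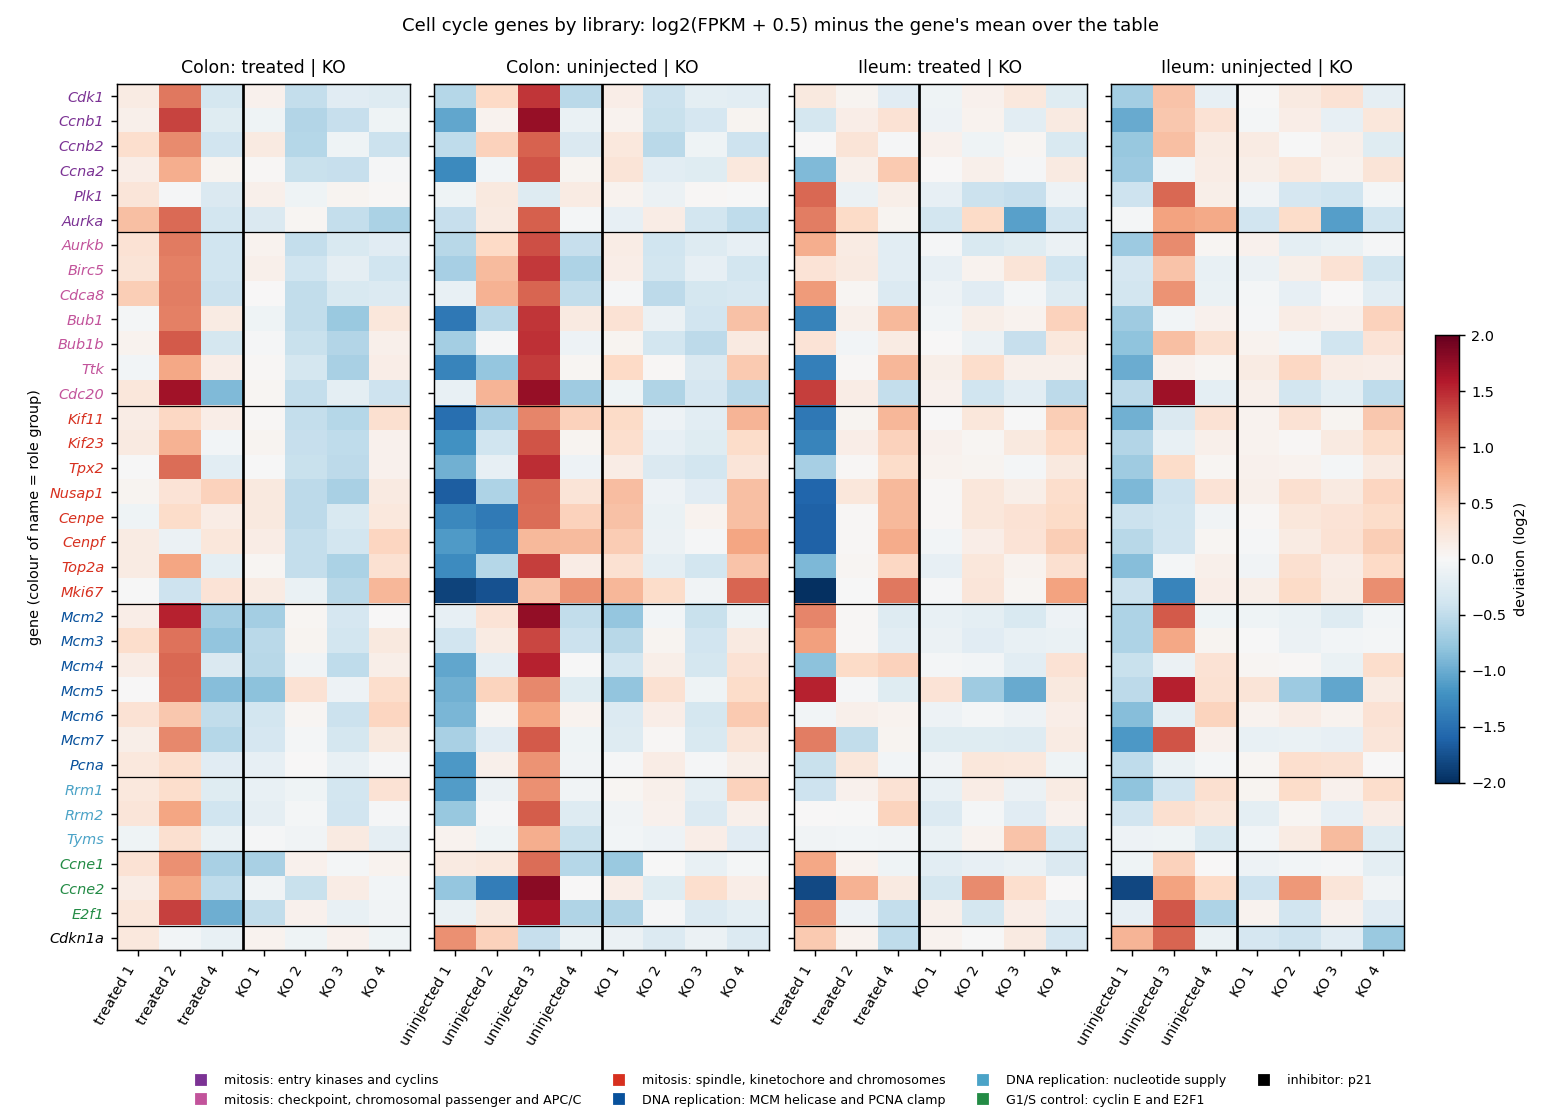
Deviation of each of the 35 genes (rows, grouped by role) from its mean over the table, in log2 units of FPKM + 0.5, for every library (columns) of the 4 tables that hold KO libraries; red is above and blue below the gene's mean, and the vertical line parts the groups. Treated colon library 2 and uninjected colon library 3 are red for nearly all genes (medians 0.92 and 1.23), and ileum treated library 1 is blue for all 8 spindle genes and red for 4 of the 7 helicase and clamp genes.

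In some ileum libraries the deviations followed the base composition of the transcripts. For treated library 1, highest for 14 members and lowest for 16, the correlation across the 35 genes between GC content and deviation was 0.87, and across all 11624 genes with a transcript it was 0.78, with a slope of 1.14 log2 units per 10 percentage points of GC. Treated library 4 ran the other way, at -0.72 across the members, and uninjected library 3 resembled treated library 1 at 0.705. For uninjected library 1, the lowest for 27 members, the correlation was 0.54 across the members and 0.074 across all 11478 genes with a transcript. For KO libraries 1 to 4 of the same comparison it was 0.009, -0.82, -0.49 and -0.55 across the members. Across those genes it was -0.25, -0.47, -0.20 and -0.48. In uninjected against KO colon the correlation across the members was 0.72, 0.68, -0.18 and -0.56 for uninjected libraries 1 to 4. For KO libraries 1 to 4 of that comparison it was -0.64, -0.076, -0.31 and -0.57. These correlations are across genes that share their libraries and are a description, with no test. The spindle genes have transcripts of low GC and great length, with medians of 43.3% and 5020 bases, against 52.1% and 3370 bases for the helicase and clamp genes and 50.7% and 2864 bases for 12053 tested genes. After that removal, the median of the members in treated against KO ileum was 0.15, the difference of Mki67 was -0.43 and that of Mcm5 0.61. The part of GC content in the split between spindle and helicase genes was not tested beyond these values.

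**Figure D4:**
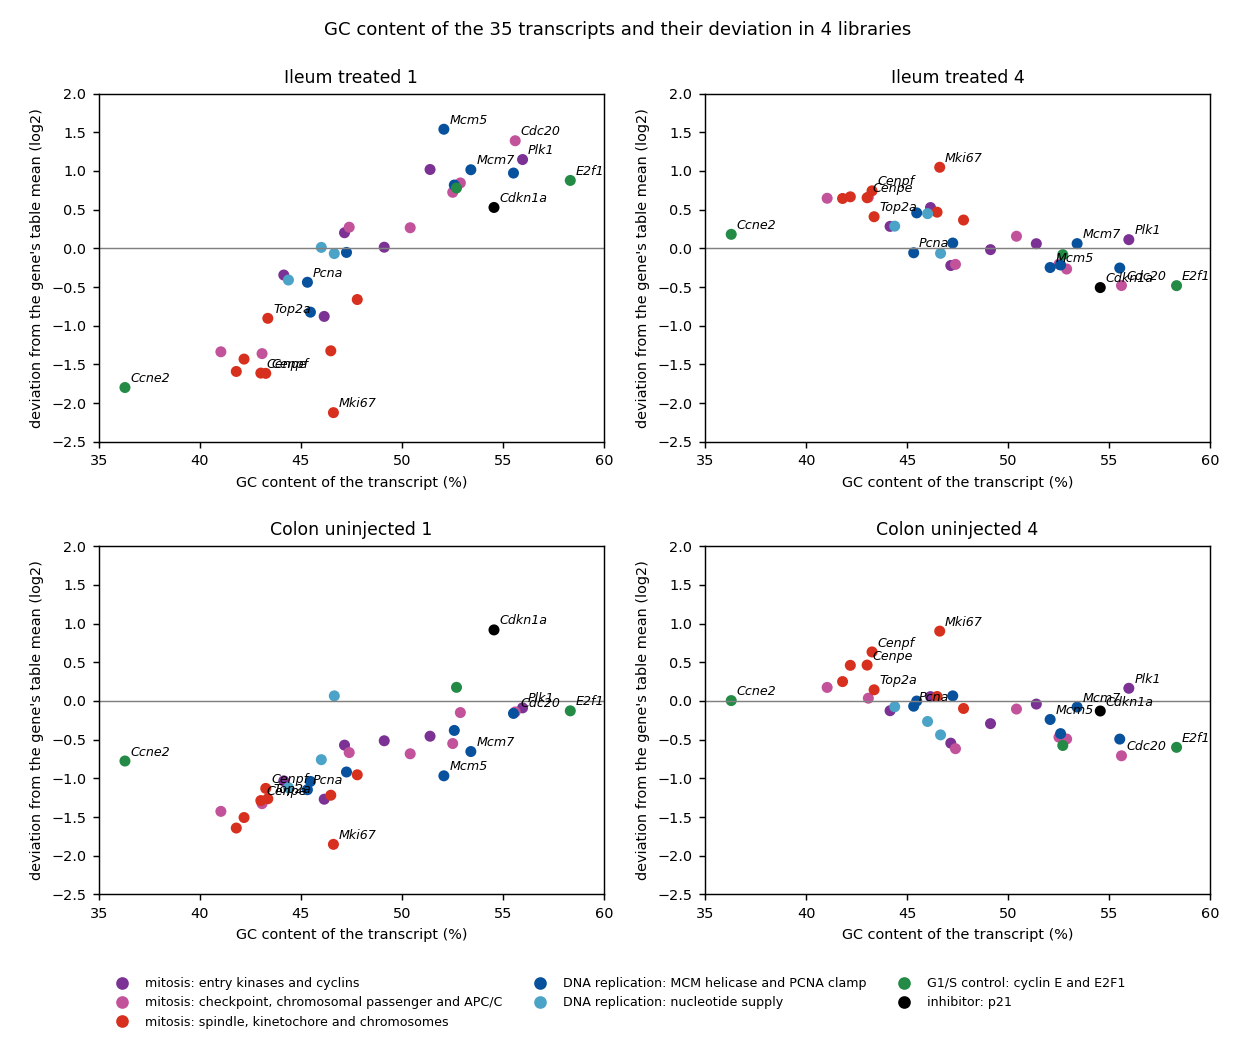
GC content of the transcript (x axis, percent) against the deviation of the gene from its table mean (y axis, log2 units) for the 35 genes in 4 libraries, coloured by role. The points rise with GC in ileum treated library 1 (correlation 0.87) and colon uninjected library 1 (0.72) and fall in ileum treated library 4 (-0.72) and colon uninjected library 4 (-0.56).

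The effects in ileum and colon were compared with an interaction term, ileum minus colon, on the same scale. Colon and ileum libraries were fitted as independent. The labels named no animals, so libraries from the same mouse, if any, could not be paired. For treated minus KO, 0 of 35 members passed (adjusted p 0.977 to 0.999), and 1 of 12448 genes passed. No member had an unadjusted limma p under 0.05, where 3.71% of all genes did. Plk1 had the smallest p, at a difference between tissues of 0.72 (SE 0.37): its treated minus KO difference was 0.67 in ileum and -0.048 in colon. Kif23 and Bub1 came next at -0.90 (SE 0.50) and -0.99 (SE 0.58). In the other pairs, uninjected with KO and treated with uninjected, every member had an adjusted p of 1, and 1 of 12364 and 0 of 12437 genes passed. No member had an unadjusted limma p under 0.05 in these pairs, where 1.19% and 0.225% of all genes did. A difference between the tissues was thus not shown for any member.

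Lists of other genes of these pathways gave a like picture, with no gene past the adjusted threshold of limma in any comparison. At an unadjusted limma p under 0.05 each list held 0 to 2 genes, against 0.821% to 7.31% of all genes by comparison. The lists were read from the same libraries and are not separate evidence. In treated against KO colon, 34 of 39 other replication genes (median 0.31) and 49 of 51 other mitosis genes (median 0.44) were positive, against 16 of 24 other G1 regulators (0.045) and 6 of 19 p53 targets (-0.089). Cenpa, the centromeric histone, averaged 11.9 ± 1.27 FPKM in treated and 7.47 ± 2.29 FPKM in KO colon (difference 0.69, limma adjusted p = 0.595). Rfc4, a subunit of the clamp loader, averaged 19.4 ± 5.94 and 13 ± 0.761 FPKM in those groups, Cdkn2b, the inhibitor p15, 84.1 ± 22.4 and 55.6 ± 7.19 FPKM, and Plk3, a p53-induced kinase, 11.9 ± 2.48 and 24.8 ± 9.44 FPKM. In uninjected against KO colon, 30 of 39, 33 of 51, 11 of 24 and 8 of 19 were positive. The genes with the smallest p of each list there were Pold2, a polymerase delta subunit (0.68), Cenpm (0.72), Cdkn1c, the inhibitor p57 (0.71), and Pmaip1, the pro-apoptotic Noxa (-0.66). In treated against uninjected colon, 23 of 39, 45 of 51, 14 of 25 and 8 of 19 were positive, with Hells at 0.81, Kif18a at 0.90, E2f5 at 0.53 and Rrm2b at 0.70.

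In ileum, 23 of 39 other replication genes, 22 of 51 other mitosis genes, 15 of 24 G1 regulators and 6 of 19 p53 targets were positive for treated against KO. Ccnd1, cyclin D1, which responds to growth signals in G1, had 59.0 ± 16.9 FPKM in treated and 30.5 ± 8.89 FPKM in KO ileum (difference 0.95, limma adjusted p = 0.939). Espl1, the separase, differed by 0.92, Chaf1b, of chromatin assembly, by 0.48, and Gadd45a, a stress gene, by -0.73. For uninjected against KO ileum, 20 of 39, 15 of 51, 14 of 24 and 8 of 19 were positive, so that the other mitosis genes had a median of -0.16, and Smc2, a condensin subunit, averaged 2.48 ± 1.54 FPKM in uninjected and 5.21 ± 1.57 FPKM in KO ileum (-1.01, limma adjusted p = 0.665). Pole2 was at -0.63, E2f6 at -1.14 and Trp53inp1 at -1.11. The p53 targets had a median of -0.089 there, beside the 1.00 of Cdkn1a. For treated against uninjected ileum, 31 of 39, 41 of 51, 18 of 24 and 5 of 18 were positive, with Rfc3 at 0.38, Espl1 at 0.96, E2f6 at 1.31 and Plk3 at -0.69.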

How the data were processed

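Poly(A) RNA of mouse colon and ileum was sequenced after NEBNext Ultra II library preparation, and reads were mapped in CLC genomics workbench, per the labels' protocols. Per the submitters' processing notes, the build was mm9 and the tools included kallisto 0.45.0, DESeq2 and DESeq 1.14.0; what each was used for is not stated. The authors deposited 6 tables of FPKM values, 1 for each pair of groups of a tissue. A library's values differ between tables by a constant factor, so groups were compared only within a table. The 35 members, the role groups and the lists of other genes were chosen with earlier results of these data known. Tests ran on log2(FPKM + 0.5) for every gene whose mean reached 1 FPKM, with limma 3.58.1 (R 4.3.3) with an intensity trend, two-sided, adjusted by Benjamini-Hochberg at 0.05, and were tested on simulated data. A log2 difference on this scale understates the change of low genes. The steps between low FPKM values gave whole reads for 84.01% of 18779 genes in colon and 83.54% of 18255 in ileum (tolerance 0.01 read) and gave the depth and the counts for voom. GC content and length are those of the longest protein-coding transcript of GENCODE vM1 on NCBIM37 (mm9). Replicate numbers were shared by uninjected and KO colon columns. The correlations of same-numbered deviations, for numbers 1 to 4, were 0.004, -0.003, -0.006 and 0.671. The libraries numbered 4 thus deviated together and the others did not, and the cause was not tested. The numbers were not used as pairs in the main fit. Named members were Mki67, Top2a, Ccnb1, Mcm5, Pcna, Rrm2, Ccne1, E2f1 and Cdkn1a, in each comparison the 5 with the smallest p, and the ends of each role group, and up to 2 genes of each list of other genes by smallest p. Alternatives were other pseudocounts (0.1 and 1), no level filter, no trend, quantile and median-ratio scaling, scaling without acinar genes, removal of GC and length trends, voom, labelled sex, and leaving out each library.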

Additional observations from a re-analysis of the deposited data

Results flagged for a closer look

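Of 105 groups of 4 values of a member, 3 held a highest library far from the others, by Dixon's criterion on the gap over the group's range, and chance flags about 1 in 20 groups. Bub1b, a kinase-like protein of the spindle checkpoint, had 26.1 FPKM in uninjected colon library 3, against 5.54 to 9.04 FPKM in the other uninjected colon libraries. Ttk had 4.45 FPKM in KO ileum library 2, against 3.58 to 3.68 FPKM in the other KO ileum libraries. Mcm7, a subunit of the MCM helicase, had 23.6 FPKM in KO ileum library 4, against 17.5 to 17.9 FPKM in the others.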

How the results depend on the processing

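In all 147 alternative fits, 85 of which left out 1 library, limma called 0 members. The median of the members in treated against KO ileum was 0.039 and moved to 0.15 with GC and length trends removed, and the cause was not tested. That setting gave -0.017 (-0.16 as reported) for uninjected against KO ileum, 0.063 (0.15) for treated against uninjected ileum, 0.23 (0.13) for uninjected against KO colon, 0.14 (0.29) for treated against uninjected colon and 0.41 (0.44) for treated against KO colon. Leaving out 1 library gave medians of 0.12 to 0.67 for treated against KO colon, -0.23 to 0.37 for uninjected against KO colon, -0.024 to 0.64 for treated against uninjected colon, -0.0026 to 0.15 for treated against KO ileum, -0.34 to 0.23 for uninjected against KO ileum and -0.16 to 0.33 for treated against uninjected ileum. With the replicate block, uninjected against KO colon had 0 members and 3 genes past the threshold and a median of 0.13. That block used the shared column numbers, which the labels do not tie to pairs of animals. The other comparisons were not blocked, because the treated and the uninjected ileum columns carry no number tied to a sample. Counts over all genes ran over the alternatives between 17 and 68 for treated against KO colon (37 as reported), 1 and 68 for uninjected against KO colon (10), 0 and 4 for treated against uninjected colon (0), 3 and 14 for treated against KO ileum (10), 0 and 5 for uninjected against KO ileum (1) and 0 and 0 for treated against uninjected ileum (0). Uncalled values of members changed sign in 21 of 559, 92 of 698, 58 of 559, 45 of 560, 40 of 560 and 85 of 525 cases in these comparisons, in the same order. With 3 or 4 libraries per group the intervals of most members include a 2-fold difference. Ccne2 was listed at 0 in single libraries.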
